A study of Mus musculus with 6 samples.

Results

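The genes described here are 32 genes of the unfolded protein response and of serine synthesis, taken by their symbols from a list that names the stress sensors of the endoplasmic reticulum (ER), their transcription factors, ER chaperones, disulfide isomerases and degradation factors, targets of the transcription factor ATF4, and enzymes of serine and mitochondrial one-carbon metabolism. All 32 were found, each as a single row, among the 28293 genes of 6 poly(A) RNA-seq libraries from mouse dermal fibroblasts. The libraries came from 3 samples labelled wild type (WT) and 3 labelled Lap2alpha KO (KO), all grown in DMEM with 10% fetal calf serum and antibiotics. LAP2alpha is an isoform of lamina-associated polypeptide 2 that has no membrane anchor and binds A-type lamins inside the nucleus. The labels give no strain, age, number of clones, method of gene disruption or origin of the replicates, so a difference between lines cannot be told apart from the loss of LAP2alpha, and p-values reflect the spread among these 6 samples alone.

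Proteins bound for secretion fold in the ER with the help of chaperones and enzymes that form disulfide bonds. When unfolded protein accumulates, the membrane sensors PERK (encoded by Eif2ak3), IRE1 (Ern1) and ATF6 (Atf6) start a transcriptional response that raises these helpers, partly through the transcription factors XBP1 and ATF4. ATF4 is also made when amino acids are short, and then raises enzymes that make asparagine, serine and one-carbon units, which fibroblasts use for collagen, nucleotides and other products.

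The libraries held 22159339 to 27281473 counts, and each of the 32 genes had at least 306 counts in every library, so all 32 passed the filter on low counts. Levels are given in counts per 1000000 counts of the library (CPM), and a gene is said to be called, or to have risen or fallen, when its edgeR adjusted p for KO against WT was under 0.05. Tmpo, which encodes all LAP2 isoforms, stood at 249 to 254 CPM in WT and 122 to 135 CPM in KO, and its count does not measure the alpha isoform on its own. The listed fibroblast markers summed to 7696 to 8448 CPM in WT and 25852 to 27536 CPM in KO, with 12 of 14 called higher and 1 lower, and their part in the results was not tested. The listed markers of keratinocytes, endothelium, immune cells, muscle and adipocytes summed to at most 8.62 CPM per list in any library. Krt14, Epcam, Dsp, Kdr, Ptprc, Adipoq and Plin1 were under 0.1 CPM in every library. Other genes of those lists differed at low levels. Vwf (mean 0.380 CPM in WT and 3.93 in KO), Csf1r (0.216 and 2.40) and Des (0.607 and 2.93) were called higher in KO. Krt10 (5.71 and 4.14), Cdh1 (2.01 and 1.08) and Cdh5 (0.920 and 0.176) were called lower. Mitochondrially encoded genes took 1.99% to 2.45% of the counts in WT and 3.76% to 4.46% in KO. The numbers of the 32 genes called in each direction were the same when those mitochondrial genes were left out. In these bulk samples fewer cells of a type and less RNA per cell cannot be told apart.

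Promoters of ER chaperone genes are known for the ER stress response element (ERSE), a CCAAT box and a CCACG box held 9 bases apart, to which ATF6 and XBP1 bind together with NF-Y. The stretches below are the ERSE matches found in the 250 bases before the RefSeq start of these genes (GRCm38.p6). They are shown because the ERSE was the searched motif found in the largest number of these genes. Each is written 5′ to 3′ in the direction of the element with 5 bases on either side, and capitals mark the match. Canx and Dnajc3 are included although their changes differ from the others.
Hspa5, chr2:34772020-34772048, plus strand: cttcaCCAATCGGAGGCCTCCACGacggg
Calr, chr8:84847070-84847098, plus strand: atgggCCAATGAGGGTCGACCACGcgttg
Hsp90b1, first, chr10:86705633-86705661, minus strand: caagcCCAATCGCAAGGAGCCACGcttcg
Hsp90b1, second, chr10:86705528-86705556, plus strand: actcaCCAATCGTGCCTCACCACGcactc
Pdia6, chr12:17266486-17266514, plus strand: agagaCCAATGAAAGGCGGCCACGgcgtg
Creld2, chr15:88819515-88819543, minus strand: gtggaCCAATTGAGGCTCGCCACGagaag
Canx, chr11:50325795-50325823, minus strand: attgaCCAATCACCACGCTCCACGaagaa
Dnajc3, chr14:118937822-118937850, plus strand: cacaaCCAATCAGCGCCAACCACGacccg

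The ERSE was searched on both strands as CCAAT and CCACG with 9 free bases between them. Promoter sequences were at hand for 29 of the 32 genes. None was at hand for Hyou1, Manf and Atf6, so these were not searched for any motif. Of the 29 genes 7 (24.1%) held an ERSE match, against 35 of all 27025 genes in the promoter table (0.13%). The element is known from ER chaperone promoters, and such genes are on the list, so an excess was built in. Of the 7 genes, Calr, Canx, Creld2, Hsp90b1, Hspa5 and Pdia6 fell in KO and Dnajc3 rose. The 7 log2 fold changes had a median of −0.89. That median was −0.92 over the 11 listed chaperones, of which 10 fell, and −0.64 over all 32 genes, of which 23 fell. The chaperones that were searched and held no match, Dnajb9, Dnajb11 and Sdf2l1, also fell (log2 fold changes −0.39, −0.92 and −1.08). Whether genes with a match changed differently from those without was not tested. The ERSE match lay between 212 and 47 bases before the RefSeq start in the promoters of the 7 genes. By the GENCODE annotation Hspa5 starts at chr2:34771970, so its match lies within the annotated gene. A match describes the letters of the window and does not show that a factor binds there, and its absence says nothing about the factors that act on a gene.

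The wider promoters of Hsp90b1, Calr and Creld2, which fell, and of Dnajc3, which rose, are given on the strand of the gene, up to the first annotated exon for Hsp90b1, Calr and Creld2 and up to the RefSeq start for Dnajc3, with the ERSE in capitals as it reads on that strand.
Hsp90b1, chr10:86705510-86705694, minus strand: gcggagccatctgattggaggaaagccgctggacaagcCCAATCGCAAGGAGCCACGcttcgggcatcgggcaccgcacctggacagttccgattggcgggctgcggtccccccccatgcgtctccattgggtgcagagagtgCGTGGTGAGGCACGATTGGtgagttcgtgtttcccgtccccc
Calr, chr8:84846935-84847181, minus strand: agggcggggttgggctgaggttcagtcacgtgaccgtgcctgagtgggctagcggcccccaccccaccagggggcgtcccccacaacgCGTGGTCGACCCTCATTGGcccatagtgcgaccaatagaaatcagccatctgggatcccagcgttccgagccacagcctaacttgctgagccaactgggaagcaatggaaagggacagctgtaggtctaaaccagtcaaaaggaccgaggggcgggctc
Creld2, chr15:88819396-88819645, plus strand: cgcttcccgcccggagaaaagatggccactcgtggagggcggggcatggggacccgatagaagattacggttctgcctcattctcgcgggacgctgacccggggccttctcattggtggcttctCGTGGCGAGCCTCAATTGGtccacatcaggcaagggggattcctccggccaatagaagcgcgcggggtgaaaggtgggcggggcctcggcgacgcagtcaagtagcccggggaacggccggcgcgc
Dnajc3, chr14:118937682-118937931, plus strand: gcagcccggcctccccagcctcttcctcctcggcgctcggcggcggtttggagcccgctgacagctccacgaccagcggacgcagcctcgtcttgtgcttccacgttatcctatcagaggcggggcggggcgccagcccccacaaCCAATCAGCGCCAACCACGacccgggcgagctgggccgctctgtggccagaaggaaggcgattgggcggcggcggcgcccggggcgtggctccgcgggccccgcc

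The shorter ERSE-II, searched on both strands as ATTGG and CCACG with 1 free base between them, was found in Herpud1 alone of the 29 genes and in 0.037% of all genes. The core of the XBP1-bound UPR element, searched as TGACGTGG, was found in none of the 29 and in 0.603% of all genes. The ATF4 composite element (CARE), searched as TGATGNAA, was found in Asns, Chac1 and Herpud1 (10.3% of the 29) and in 3.91% of all genes. Its fuller form TGATGCAA, which every match of TGATGNAA with C at the open base also is, was found in Chac1 and Herpud1 and in 0.918% of all genes. By the GENCODE annotation Asns reaches chr6:7693254, so its match lies within the annotated gene. The stretches below are written in the direction of the element with 5 bases on either side. They are shown because the 3 genes went in different directions: Asns rose, Chac1 fell and Herpud1 was not called.
Asns, CARE, chr6:7693220-7693237, minus strand: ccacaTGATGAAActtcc
Chac1, CARE, chr2:119351044-119351061, minus strand: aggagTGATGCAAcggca
Herpud1, CARE, chr8:94386312-94386329, minus strand: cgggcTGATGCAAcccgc
Herpud1, ERSE-II, chr8:94386372-94386392, plus strand: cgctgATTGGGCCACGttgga

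Most of the 32 genes were lower in KO. By edgeR's quasi-likelihood test 23 fell (71.9%), 5 rose (15.6%) and 4 were not called. Of all 15081 tested genes 75.1% were called, 37.5% lower and 37.7% higher, so a call by itself was common. Their median log2 fold change was −0.64, beside 0.01 for all tested genes. A call with at least a 2-fold decrease was made for 10 of the 32, beside 11.4% of all tested genes. No gene of the 32 was called with a 2-fold increase, beside 16.7% of all tested genes, and the largest increase, that of Eif2ak3, was 1.83-fold. In edgeR's test against a change of 1.5-fold, 16 of the 32 were lower and 1, Eif2ak3, was higher, beside 16.8% and 20.5% of all tested genes. Together the 32 genes took 1.32% of the counts in WT and 0.871% in KO, with 12910 to 13338 CPM per WT library and 8657 to 8771 CPM per KO library.

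**Figure D1:**
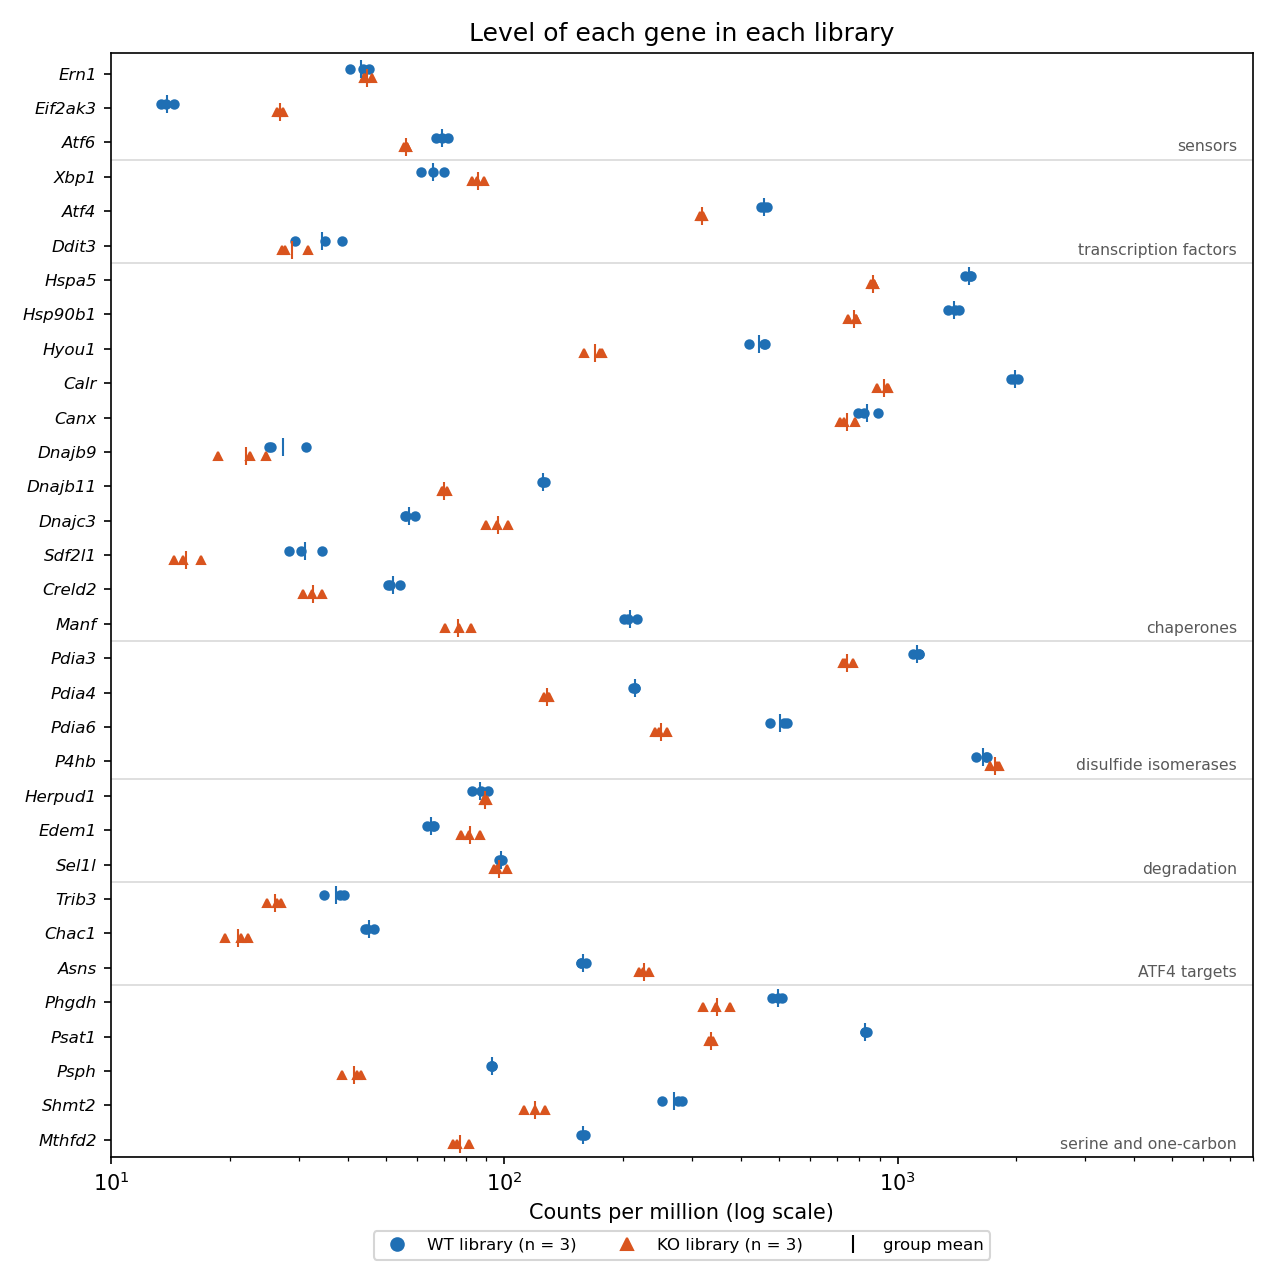
Level of each of the 32 genes in each library, in CPM on a log axis, with WT libraries as circles and KO libraries as triangles (n = 3 each) and the group means as short bars. Most chaperones and all 5 serine and one-carbon genes sit to the left in KO, while Eif2ak3, Dnajc3, Asns, Xbp1 and Edem1 sit to the right. P4hb, which was not called, also sits to the right in CPM.

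The spread between libraries of a group was small for most of these genes, with a median SD of 3.54% of the mean in WT and 3.86% in KO. It was widest for Ddit3 in WT (13.6%) and Dnajb9 in KO (14.1%). The KO and WT libraries did not overlap in CPM for 28 of the 32 genes, beside 76.8% of all tested genes. These 28 were 22 of the 23 genes that fell, the 5 that rose, and P4hb.

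The 3 sensor genes did not move together. Eif2ak3, the kinase PERK that phosphorylates eIF2alpha and so lowers translation and favours ATF4, had 13.8, 14.4 and 13.3 CPM in the WT libraries and 27.3, 26.3 and 26.9 CPM in the KO libraries. Every KO library was above every WT library, and Eif2ak3 rose by a log2 fold change of 0.87 (edgeR adjusted p = 8.8e-07, SE 0.0683). The annotation places 8.05% of its exonic sequence within an antisense gene model. Atf6, the sensor that is cut in the Golgi to release a transcription factor, had 69.2, 66.8 and 71.9 CPM in WT and 56.4, 56.5 and 55.6 CPM in KO. The groups did not overlap, and Atf6 was lower (log2 fold change −0.38, edgeR adjusted p = 5.3e-05, SE 0.0505). Ern1, the kinase and nuclease that splices Xbp1 mRNA, had 40.4, 43.7 and 45.3 CPM in WT and 46.1, 44.2 and 44.0 CPM in KO. These values overlapped, Ern1 was not called (edgeR adjusted p = 0.73), and the 95% interval of its log2 fold change ran from −0.15 to 0.11. Per kilobase of exon the 3 sensors had the 3 lowest levels of the 32 genes in both groups, with 2.30 for Eif2ak3, 5.28 for Ern1 and 7.51 CPM per kilobase for Atf6 in WT.

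Of the 3 transcription factor genes, Xbp1 rose and Atf4 and Ddit3 fell. Xbp1, whose spliced mRNA encodes the active factor, had 61.5, 65.7 and 70.1 CPM in WT and 88.8, 84.96 and 82.9 CPM in KO. The groups did not overlap (log2 fold change 0.30, edgeR adjusted p = 0.00086, SE 0.0589), and counts per gene do not separate spliced from unspliced Xbp1. Atf4, which is controlled largely at translation, had 449.8, 466 and 458 CPM in WT and 314, 318 and 321 CPM in KO. All 3 KO libraries were lower, by a log2 fold change of −0.61 (edgeR adjusted p = 6.9e-07, SE 0.0458). Ddit3, which encodes the factor CHOP that is tied to prolonged stress, had 29.3, 38.6 and 34.9 CPM in WT and 27.2, 27.7 and 31.6 CPM in KO. The highest KO library was above the lowest WT library, and Ddit3 was the gene among the 23 with the weakest call (log2 fold change −0.33, edgeR adjusted p = 0.013, SE 0.101). Without WT replicate 2 the log2 fold change was −0.23 and the call was lost (edgeR adjusted p = 0.062). The annotation places 4.73% of its exonic sequence opposite other genes and 6.13% within a second gene model on the same strand.

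The chaperone genes made up the largest role, and 10 of 11 fell; the median log2 fold change was −0.92. Their summed level was 6680.0 ± 73.6 CPM in WT and 3791 ± 7.22 CPM in KO (SD, n = 3 libraries), a ratio of 1.76. Hspa5, the ER member of the HSP70 family that also holds the sensors inactive, had 1486, 1532 and 1536 CPM in WT and 856, 869.9 and 873 CPM in KO. Hsp90b1, the ER member of the HSP90 family, had 1348, 1401 and 1433 CPM in WT and 785, 750.4 and 784 CPM in KO. For both genes the groups were far apart compared with the spread within them. Hspa5 fell by a log2 fold change of −0.89 (edgeR adjusted p = 4.7e-08, SE 0.0467) and Hsp90b1 by −0.93 (edgeR adjusted p = 5.7e-08, SE 0.0501). For Hsp90b1 10.3% of the exonic sequence lies within an antisense gene model and 5.38% within other gene models on the same strand.

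Factors that work with HSPA5 went in different directions. Hyou1, a large HSP70-like protein that exchanges its nucleotide, had 419, 459 and 457 CPM in WT and 159, 175 and 177 CPM in KO. The Hyou1 decrease of 2.76-fold was among the largest of the 32 (log2 fold change −1.46, edgeR adjusted p = 1e-08, SE 0.0611). Among the J-domain cochaperones, Dnajb11 fell from 126 ± 1.32 to 70.1 ± 1.000 CPM (SD, n = 3), a log2 fold change of −0.92. Dnajb9 had 31.3, 25.2 and 25.5 CPM in WT and 24.7, 22.5 and 18.6 CPM in KO. The lowest WT library was close to the highest KO library, and the call was weak (log2 fold change −0.39, edgeR adjusted p = 0.01, SE 0.115). Dnajc3, a cochaperone that was first described as an inhibitor of eIF2alpha kinases, was the exception and had 59.3, 55.8 and 56.1 CPM in WT and 102, 95.9 and 89.8 CPM in KO. It rose in every KO library, by a log2 fold change of 0.67 (edgeR adjusted p = 2.8e-06, SE 0.0611).

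The secreted and ER-retained factors Manf, Creld2 and Sdf2l1, which are commonly used as markers of ER stress, were all lower. Manf, a neurotrophic factor retained in the ER, had 202, 217 and 206 CPM in WT and 82.1, 70.6 and 76.5 CPM in KO. This was the largest decrease of the 32 genes, 2.88-fold (log2 fold change −1.53, edgeR adjusted p = 1.3e-08, SE 0.0659). For Manf 8.85% of the exonic sequence lies opposite genes on the other strand. Sdf2l1, which works in complex with the product of Dnajb11, had 34.3, 30.4 and 28.3 CPM in WT and 14.4, 15.2 and 16.9 CPM in KO. Creld2 fell from 52.0 ± 2.07 to 32.5 ± 1.76 CPM (SD, n = 3). The KO values of both lay well under the WT values, with log2 fold changes of −1.08 for Sdf2l1 and −0.75 for Creld2.

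The 2 lectin chaperones, which hold glycoproteins while they fold, differed in size of change. Calr, the soluble lectin and the most abundant of the 32 genes per length in WT, had 1948, 2025 and 1984 CPM in WT and 887, 947 and 943 CPM in KO. Canx, its membrane-bound relative, had 893, 792 and 824 CPM in WT and 781, 732 and 714 CPM in KO. The annotation holds a named pseudogene of Calr, with which reads could be shared. Calr fell 2.26-fold (95% interval of the log2 fold change −1.29 to −1.06), whereas the fitted decrease of Canx was 1.19-fold (−0.38 to −0.11, edgeR adjusted p = 0.0035). These intervals do not overlap, and the difference between the 2 changes was not tested in a model of its own.

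Of the 4 disulfide isomerases 3 fell and P4hb was not called. Pdia6 had 475, 522 and 513 CPM in WT and 248, 242 and 259.9 CPM in KO (log2 fold change −1.09, edgeR adjusted p = 4.1e-08, SE 0.0561). Pdia4 fell from 214 ± 1.46 to 128 ± 2.10 CPM and Pdia3, which acts on glycoproteins with calreticulin and calnexin, from 1122 ± 23.5 to 744 ± 22.3 CPM (SD, n = 3), with log2 fold changes of −0.82 and −0.67. P4hb, the founding disulfide isomerase and also the beta subunit of collagen prolyl 4-hydroxylase, had 1579.7, 1679.9 and 1689 CPM in WT and 1716, 1794 and 1814 CPM in KO. Every KO library was above every WT library in CPM, but the TMM scaling factors were 0.968 to 0.981 in WT and 1.02 to 1.03 in KO. After that scaling the log2 fold change was 0.03 with a 95% interval of −0.09 to 0.14 (edgeR adjusted p = 0.63), and it was −0.02 without WT replicate 1.

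**Figure D2:**
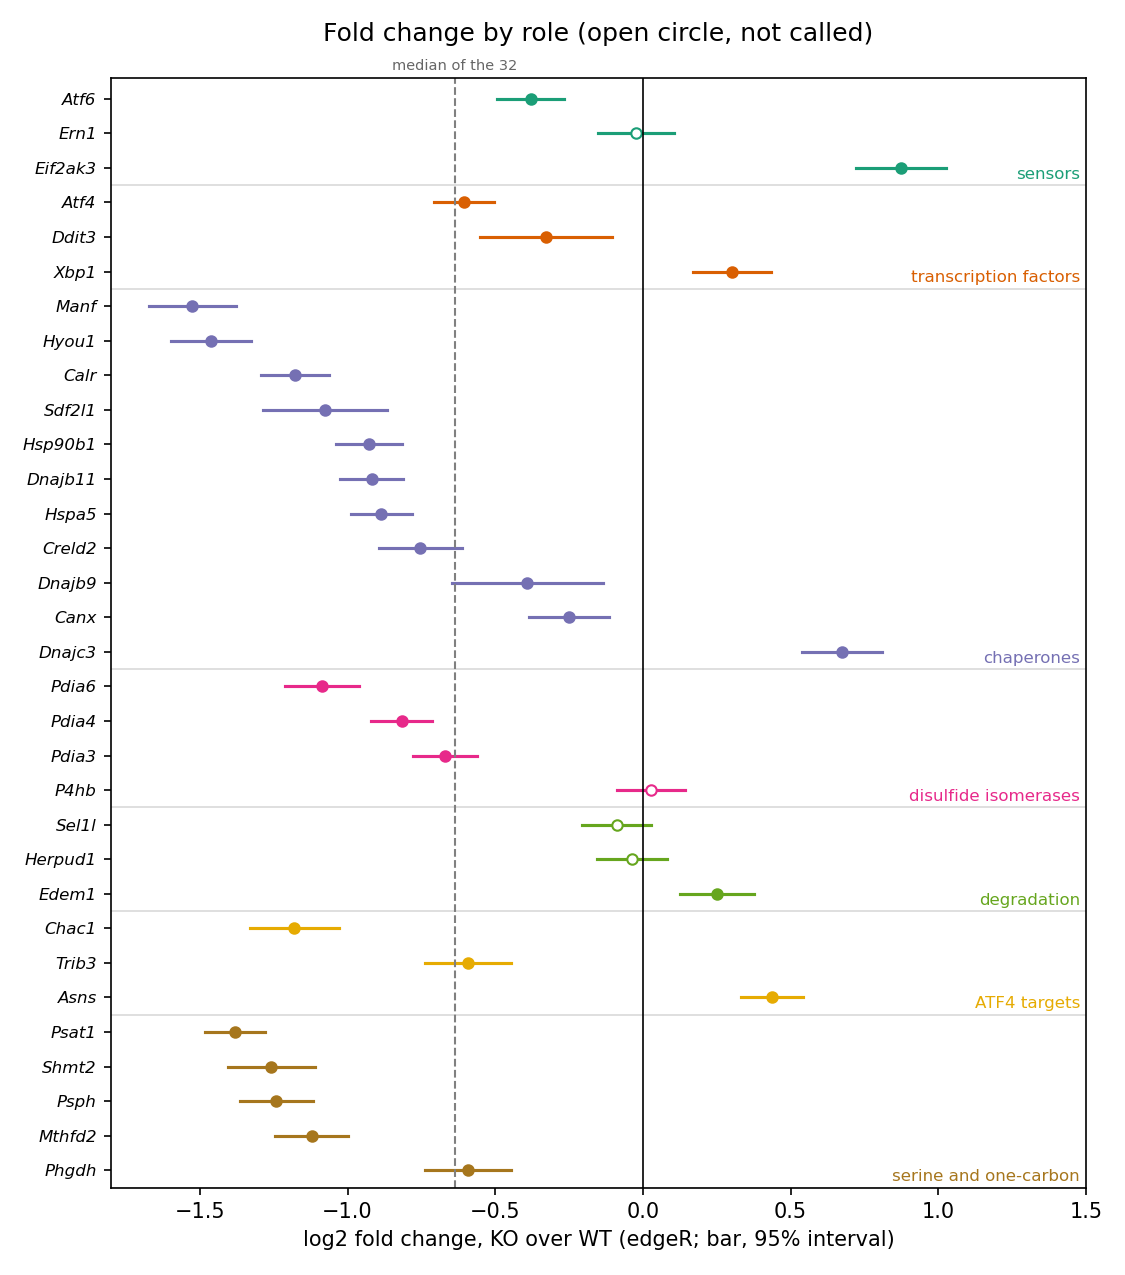
Fold change of each gene by role on the log2 scale, KO over WT, from edgeR, with bars for the 95% interval, filled circles for called genes and open circles for the 4 that were not called. The dashed line marks the median of the 32 genes, −0.64. The chaperones and the serine genes lie mostly to the left of 0, and the degradation genes lie near it.

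The genes of the folding machinery differed in their shares of its summed level. Per kilobase of exon, the summed level of the 11 chaperones and 4 isomerases was led by Calr (23.2%) and P4hb (19.4%) in WT. In KO P4hb held 31.2% and Calr 16.2%. Canx went from 5.98% to 7.97%, Hspa5 from 12.1% to 10.3% and Hsp90b1 from 11.6% to 9.66%. These shares compare levels per length within each group and have no test.

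**Figure D3:**
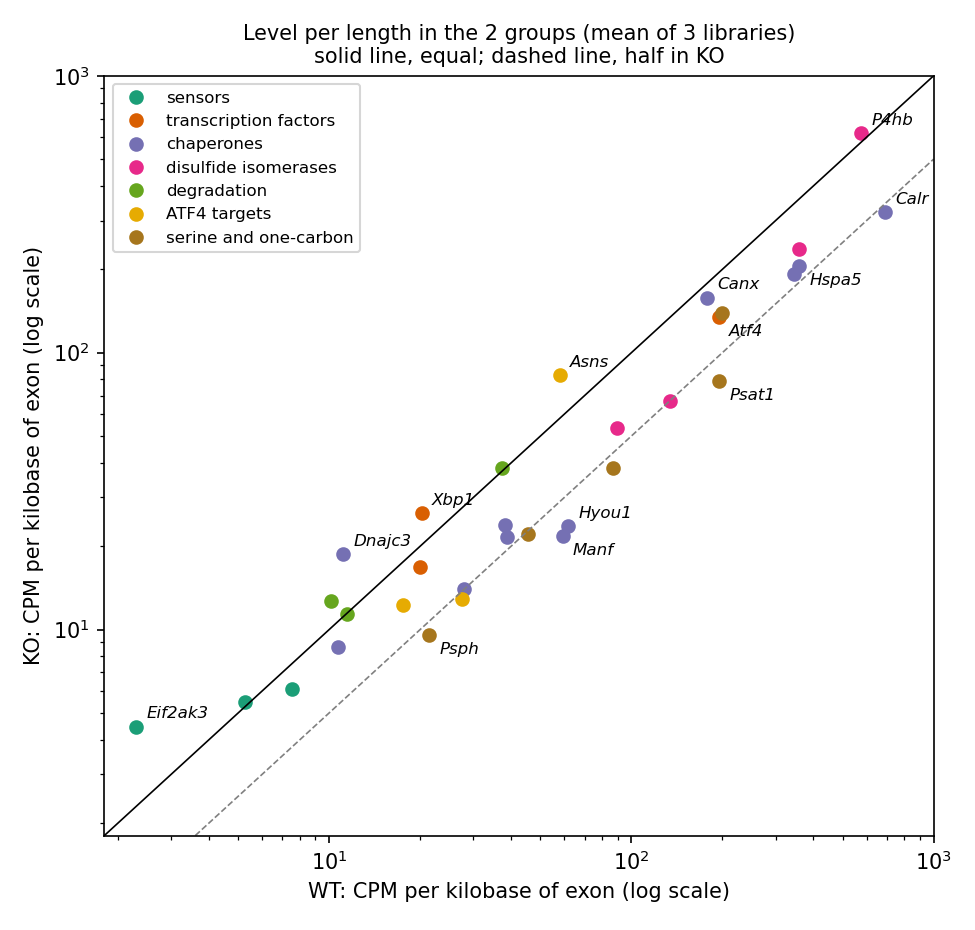
Mean level of each gene in CPM per kilobase of exon, WT on the horizontal and KO on the vertical axis, both on log scales, coloured by role (mean of 3 libraries). Points on the solid line have the same level in both groups, and points under the dashed line are more than 2-fold lower in KO, as are Calr (689 and 321) and Psat1 (195 and 78.9).

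Of the 3 degradation genes Edem1 rose and the others were not called. Herpud1, a membrane scaffold of the degradation complex, had 82.7, 91.0 and 87.0 CPM in WT and 88.6, 90.05 and 89.4 CPM in KO. Sel1l, the partner of the ubiquitin ligase of this pathway, had 98.8, 96.7 and 98.1 CPM in WT and 102, 93.8 and 95.6 CPM in KO. For both the groups overlapped and neither was called, with 95% intervals of the log2 fold change of −0.16 to 0.08 for Herpud1 and −0.21 to 0.03 for Sel1l. Edem1, which directs misfolded glycoproteins to degradation, had 63.4, 66.3 and 65.8 CPM in WT and 86.8, 81.5 and 77.4 CPM in KO. Its KO libraries were all above WT, a rise of 0.25 on the log2 scale (edgeR adjusted p = 0.0021, SE 0.0563).

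The 3 ATF4 targets outside serine metabolism went both ways. Asns, asparagine synthetase, had 157, 157 and 161 CPM in WT and 233, 226 and 219.8 CPM in KO. It rose in all KO libraries (log2 fold change 0.44, edgeR adjusted p = 1.1e-05, SE 0.0474). Chac1, which breaks down glutathione, had 44.1, 46.5 and 44.8 CPM in WT and 19.4, 21.3 and 22.3 CPM in KO. Trib3, a pseudokinase induced by ATF4 and CHOP, had 34.8, 38.2 and 39.1 CPM in WT and 24.9, 26.96 and 26.5 CPM in KO. Both fell without overlap between the groups, Chac1 by a log2 fold change of −1.18 (edgeR adjusted p = 8.5e-08, SE 0.0675) and Trib3 by −0.59 (edgeR adjusted p = 1.3e-05, SE 0.0653).

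All 5 genes of serine synthesis and mitochondrial one-carbon metabolism fell. Their summed level was 1846 ± 37.9 CPM in WT and 919.7 ± 32.4 CPM in KO (SD, n = 3), a ratio of 2.01, and their median log2 fold change was −1.24. Phgdh encodes the first enzyme of serine synthesis from glycolysis and had 480.1, 509.8 and 496 CPM in WT and 319, 344 and 375 CPM in KO. Psat1 encodes the second enzyme and had 824, 834 and 827 CPM in WT and 339, 336 and 331 CPM in KO. Psph encodes the last enzyme and had 92.8, 92.3 and 93.2 CPM in WT and 42.2, 43.3 and 38.7 CPM in KO. The groups of each gene were separate, and Phgdh fell less than the other enzymes of the pathway. The log2 fold change was −0.59 for Phgdh (95% interval −0.74 to −0.45), −1.38 for Psat1 (−1.48 to −1.28, edgeR adjusted p = 2.3e-09) and −1.24 for Psph (−1.36 to −1.12). The interval of Phgdh does not overlap the others, and the difference was not tested in a model of its own. In Psph 10.4% of the exonic sequence lies opposite Cct6a, and Phgdh has a named pseudogene.

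In mitochondria Shmt2 turns serine into glycine and a one-carbon unit, and Mthfd2 oxidises that unit further. Shmt2 had 252, 284 and 277 CPM in WT and 112, 119.9 and 127 CPM in KO. Mthfd2 had 157, 160.2 and 159.5 CPM in WT and 75.7, 74.1 and 81.1 CPM in KO. Every KO library of both genes was under every WT library. Shmt2 fell 2.39-fold (log2 fold change −1.26, edgeR adjusted p = 4.5e-08, SE 0.0658) and Mthfd2 2.18-fold (−1.12, edgeR adjusted p = 2.9e-08, SE 0.0551).

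Other genes of the same pathways were taken from lists drawn up by function, but with earlier results of these data known. They are set beside the background of 37.5% lower and 37.7% higher. The closest to the serine genes by function are those of folate and glycine metabolism, of which 11 of 20 fell and 6 rose (median log2 fold change −0.27). Mthfd1, the cytosolic folate enzyme, fell from 139 ± 6.62 to 53.1 ± 2.00 CPM (SD, n = 3). Shmt1, the cytosolic counterpart of Shmt2, fell from 50.4 ± 1.82 to 26.9 ± 0.399 CPM, and Gcsh of the glycine cleavage system (−1.32) and Ahcy of the methyl cycle (−1.46) fell as well. Aldh1l1, a cytosolic folate dehydrogenase named here after its values were seen, went the other way, with 0 counts in each WT library and 51, 79 and 70 counts in KO.

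Cytosolic aminoacyl-tRNA synthetases, several of which are ATF4 targets, were mostly lower, with 18 of 20 falling and 1 rising (median −0.56). Vars fell from 450.2 ± 12.3 to 199 ± 13.6 CPM and Aars from 755 ± 37.9 to 385 ± 21.1 CPM (SD, n = 3), with Farsa (−1.31) and Yars (−1.03) also lower. By contrast, 10 of 25 tested other targets of ATF4 and CHOP fell and 10 rose (median 0.04), a split close to the background. Aldh18a1, which makes the precursor of proline, fell from 357 ± 16.1 to 133 ± 0.928 CPM. Eif4ebp1, a repressor of cap-dependent translation, fell (−1.003), as did the cationic amino acid transporter Slc7a1 (−0.88), and the lipoprotein receptor Vldlr rose from 4.45 ± 0.171 to 19.96 ± 1.30 CPM.

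Regulators and relatives of the sensors were balanced, with 7 of 20 tested genes higher and 7 lower (median −0.06). Creb3l1 and Creb3l2, membrane-bound factors that are cut like ATF6 and act on secretory and matrix genes, rose from 22.6 ± 2.44 to 101 ± 0.632 CPM and from 35.1 ± 1.85 to 77.1 ± 3.31 CPM (SD, n = 3). Eif2s1, which encodes the eIF2alpha subunit that PERK phosphorylates, fell from 239 ± 9.23 to 107 ± 6.94 CPM (log2 fold change −1.24, edgeR adjusted p = 2.7e-08). The pro-apoptotic Bcl2l11 rose (1.71).

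Other ER folding enzymes were balanced too, with 11 of 28 higher and 11 lower (median −0.03). Uggt1, which marks unfolded glycoproteins for another round with the lectins, fell from 249 ± 10.9 to 105 ± 1.29 CPM, and the disulfide reductase Dnajc10 fell (−0.82). Fkbp14, a prolyl isomerase that acts on collagens, rose from 10.1 ± 1.21 to 50.7 ± 3.27 CPM (SD, n = 3). Clgn, a homologue of Canx known from testis, had 50, 51 and 54 counts in the WT libraries and 0, 1 and 0 counts in KO. Other degradation genes were balanced as well, with 7 of 18 tested genes higher and 7 lower (median −0.02). The ER lectins Erlec1 (1.30) and Os9 (1.16) and the relative of Edem1, Edem2 (0.52), rose and the ubiquitin-conjugating enzyme Ube2g2 (−0.53) fell. Of 24 genes of the translocon, signal recognition particle and signal peptidase 8 fell and 5 rose (median −0.06), and 9 rose when library totals alone set the scale. Srprb, a subunit of the receptor of the signal recognition particle, fell from 97.5 ± 4.93 to 58.9 ± 3.07 CPM, and Sec61b (−0.52), Srp9 (−0.52) and Ssr1 (−0.48) were lower.

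**Figure D4:**
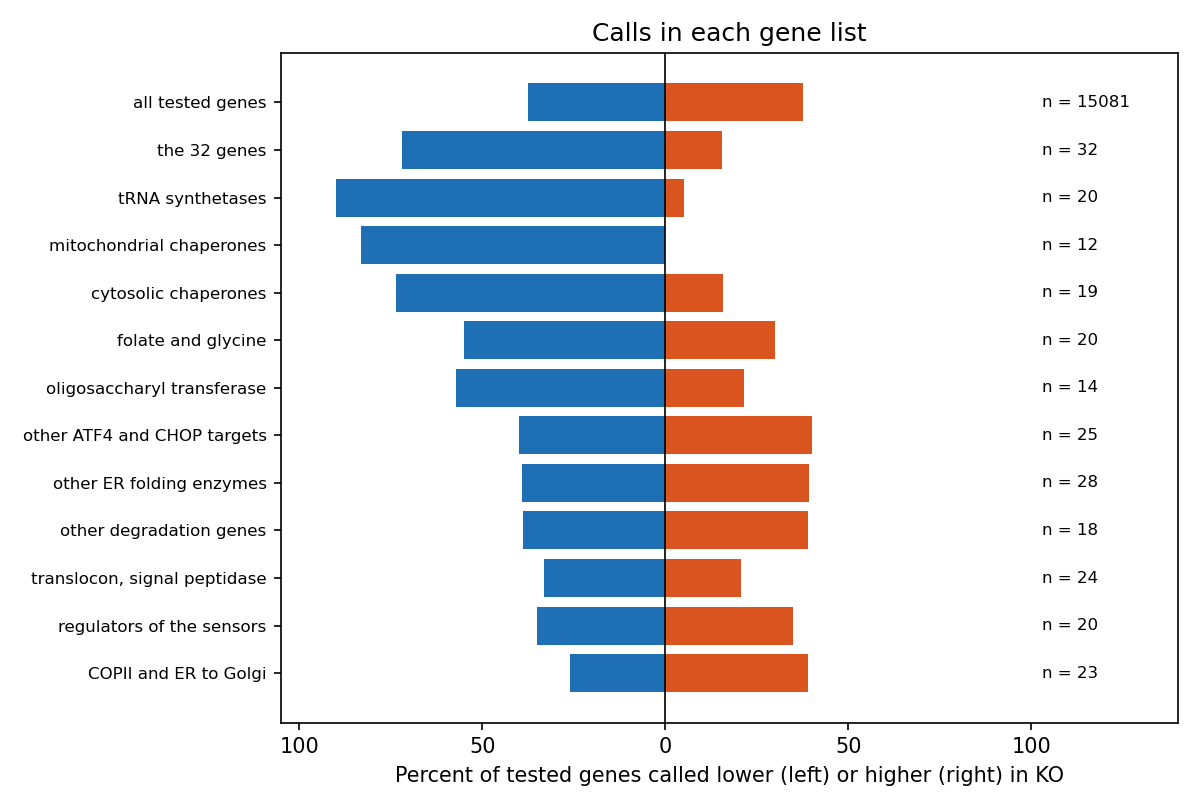
Percent of the tested genes in each list called lower in KO (left, blue) or higher (right, orange) by edgeR, with the number tested at the right. All tested genes divide into 37.5% lower and 37.7% higher, while the 32 genes divide into 71.9% and 15.6%.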

How the data were processed

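Reads were aligned with STAR 2.7.10b to GRCm38, per the submitters' processing notes, and the authors deposited raw counts per Ensembl gene, 1 file for each of 6 libraries. The libraries were poly(A)-selected and made with a directional kit, per the labels' protocols. Neither the counter, its strand option nor its handling of multiply matching reads is given in the sources used here, so overlapping genes and close copies are uncertain. Of 28293 identifiers 28230 were found in GENCODE M21 (GRCm38), which gave symbols, positions and exonic lengths. CPM is a count scaled to a library total of 1000000. The contrast of KO with WT was fitted in edgeR 4.0.16 (R 4.3.3) with TMM scaling, filterByExpr and a quasi-likelihood test over all 15081 genes that passed, with Benjamini-Hochberg adjustment and a threshold of 0.05. The SE is the log2 fold change divided by the square root of F. The script was tested on simulated data, where it missed most of the smallest changes and its share of false calls was above the threshold, so small called changes are less certain. The alternatives were other scalings and filters, DESeq2 1.42.0, limma-voom (limma 3.58.1), the replicate number as a block, a test against a 1.5-fold change, mitochondrial genes left out and each library left out. The genes named are the 32, Tmpo, marker genes, and up to 4 tested genes with the smallest p in each other list. The 32 genes and the lists were chosen with earlier results of these data known. Promoter sequences are from RefSeq (GRCm38.p6). Some list genes are not analysed here.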

Additional observations from a re-analysis of the deposited data

How the results depend on the processing

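Under the 16 alternatives 5 of the 32 genes were called higher and 23 lower, except in edgeR's test against a 1.5-fold change (1 and 16) and without WT replicate 2, where Ddit3 was lost (22 lower, and 1 to 2 transcription factors lower over the left-out libraries). Of 528 results for the 32 genes and Tmpo, 509 kept their direction and side of the threshold, 12 lost the call and 7 changed sign. Those 7 belong to genes that were not called. Ern1 had a log2 fold change of 0.040 with upper-quartile scaling and 0.054 with library totals, and Herpud1 0.026 and 0.040. With each library left out in turn P4hb ranged from −0.022 to 0.060 (−0.0014 without KO replicate 3) and Herpud1 from −0.092 to 0.00084. Those scalings gave 8 and 9 translocon genes higher and 3 COPII genes lower in both. With a library left out, 3 to 5 translocon genes were higher (3 without WT replicate 2), 3 to 7 COPII genes lower (3 without KO replicate 2), and 0 to 1 mitochondrial chaperones higher. That 1 gene was Yme1l1, named after its values were seen, and Yme1l1 was also the 1 called higher under size factors by relative log expression, upper-quartile scaling, library totals, no filter, a filter at 1 CPM, DESeq2, the replicate block and mitochondrial genes left out.

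Against a 1.5-fold change 3094 genes were higher and 2527 lower over all genes. That test called 0 sensors lower, 0 transcription factors in either direction, 0 chaperones and 0 ER degradation genes of the 32 higher, and 0 ATF4 targets of the 32 higher and 1 lower. In the other lists the higher and lower genes were 2 and 0 for degradation, 7 and 5 for folding enzymes, 0 and 1 for the translocon, 0 and 1 for N-glycan transfer, 2 and 1 for COPII, 4 and 2 for regulators of the sensors, 4 and 5 for ATF4 and CHOP targets, 0 and 9 for tRNA synthetases and 1 and 6 for folate and glycine. The higher and lower genes were 2 and 9 for cytosolic chaperones and 0 and 2 for mitochondrial chaperones. The cause of a lost call there is the larger change the test requires.

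Same-numbered libraries had correlations of 0.297, −0.126 and 0.262 of their deviations from the group means. Those of differently numbered libraries ran from −0.511 to 0.445. So few values cannot tell whether the replicate numbers pair the libraries. With the replicate number as a block 5 of the 32 genes were higher and 23 lower, and 5832 and 5865 of all genes. The lowest count among the 32 genes was 306 in a library, and the 3 libraries per group limit the precision.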

Other observations

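Chaperones outside the ER were mostly lower as well. Of 19 tested chaperones and cochaperones of the cytosol 14 fell and 3 rose (median log2 fold change −0.60). Hsp90aa1, the inducible cytosolic HSP90, fell from 2239.7 ± 113 to 862 ± 29.4 CPM (SD, n = 3). Hsph1, a nucleotide exchange factor of HSP70, fell from 258 ± 8.15 to 100.3 ± 2.79 CPM and the adaptor Stip1 from 481 ± 8.79 to 219.8 ± 2.80 CPM. The J-domain gene Dnajb4 rose (1.45). Of 12 mitochondrial chaperones and proteases 10 fell and 2 were not called (median −0.50). Hspd1 and Hspe1, the chaperonin and its lid, fell from 1342 ± 19.6 to 509 ± 9.27 CPM and from 339 ± 17.0 to 128 ± 4.55 CPM, and Hspa9 (−0.55) and the protease Afg3l2 (−0.50) were lower.

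Genes of vesicle transport out of the ER went both ways, with 9 of 23 higher and 6 lower (median 0.07). Sec24d, a cargo receptor of the COPII coat, rose from 94.2 ± 2.23 to 250.3 ± 8.10 CPM (SD, n = 3), the coat scaffold Sec16a (1.00) and the cargo lectin Lman1 (0.66) rose, and Tmed2 fell (−0.73). Of 14 genes of N-glycan transfer and trimming 8 fell and 3 rose (median −0.21), among them the glucosidases Ganab (−0.69) and Mogs (−0.45) and the transferase subunit Stt3a (−0.38), which fell, and Tusc3 (0.38), which rose.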
